A study of Mus musculus with 6 samples.

Results

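The genes described here belong, by symbol, to families with parts in building and moving motile cilia. They are the 77 of 32285 genes in the count tables whose symbols begin with Dnah, Cfap, Rsph or Ift and a digit, or with Spag6, Spag16 or Spag17. There were 16 Dnah, 33 Cfap, 8 Rsph, 5 Spag and 15 Ift genes, of which Dnah2os, Spag17os and Ift88os are named as opposite-strand genes of a member. They were followed in nuclei isolated from frozen lumbar spinal cords of C57BL/6 mice aged 110 days, first in ependymal-like nuclei beside all other nuclei and then between genotypes. Every mouse carried SOD1G93A, a mutant human superoxide dismutase transgene that models amyotrophic lateral sclerosis. There were 3 PHD1+/+ libraries and 3 PHD1-/- libraries, the latter lacking the oxygen-sensing prolyl hydroxylase PHD1. The transgene was thus shared by both groups, and no mice without it were compared. The labels speak of littermate pairs. The promoter of the transgene, the deleted part of the PHD1 gene, the sex of the mice and any pooling are not given in the sources used here.

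An axoneme, the core of a motile cilium, is a cylinder of doublet microtubules around a central pair. Dynein arms on the doublets, whose motor subunits are the Dnah heavy chains, slide neighbouring doublets past each other. Radial spokes (Rsph) and the central pair apparatus (Spag6, Spag16, Spag17) regulate the arms, and many Cfap proteins sit inside the doublets, in the central pair or at the bases of the arms. Intraflagellar transport (Ift) proteins carry cargo along motile and primary cilia alike, and primary cilia are found on many cell types. In the spinal cord, ependymal cells line the central canal and their motile cilia move cerebrospinal fluid. Foxj1 and factors of the Rfx family switch on motile cilium genes, and Rfx factors bind a motif called the X-box.

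To show what some of these genes carry before their starts, the 250 bases before RefSeq's start are printed for 4 members, from RefSeq's promoter table on GRCm38.p6, each 5′ to 3′ on the gene's strand. Capitals mark the hexamer GTTGCC on either strand (GGCAAC), which is a common arm of the X-box, and a full X-box. Spag16 and Cfap44 are shown as a central pair and a dynein tether gene that were high in ependymal-like nuclei and hold the hexamer. Dnah12 is shown as the member with the largest share of its molecules in those nuclei, and Cfap298, an assembly factor of dynein arms, as the member with a full X-box. RefSeq's start is the GENCODE gene start for Spag16 and lies 3 and 265 bases downstream of it for Cfap44 and Cfap298. For Dnah12 it lies 1720 bases upstream of the GENCODE start, so the printed window does not adjoin the gene position given below.
Spag16, chr1:69826720-69826969, plus strand: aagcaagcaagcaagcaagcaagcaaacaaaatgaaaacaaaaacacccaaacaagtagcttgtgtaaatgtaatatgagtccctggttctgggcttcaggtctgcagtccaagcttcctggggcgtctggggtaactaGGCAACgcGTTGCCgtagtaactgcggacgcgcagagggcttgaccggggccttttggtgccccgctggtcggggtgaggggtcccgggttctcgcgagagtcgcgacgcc
Cfap44, chr16:44394549-44394798, plus strand: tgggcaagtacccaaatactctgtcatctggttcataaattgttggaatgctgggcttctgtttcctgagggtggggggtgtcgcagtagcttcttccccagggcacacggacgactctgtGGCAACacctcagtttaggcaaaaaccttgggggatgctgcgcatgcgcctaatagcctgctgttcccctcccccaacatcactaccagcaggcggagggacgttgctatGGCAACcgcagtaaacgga
Dnah12, chr14:26691304-26691553, plus strand: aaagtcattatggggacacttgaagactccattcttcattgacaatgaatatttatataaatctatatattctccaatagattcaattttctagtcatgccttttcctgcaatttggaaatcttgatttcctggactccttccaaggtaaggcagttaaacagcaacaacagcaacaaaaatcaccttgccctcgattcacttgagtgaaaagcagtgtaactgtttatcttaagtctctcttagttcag
Cfap298, chr16:90934850-90935099, minus strand: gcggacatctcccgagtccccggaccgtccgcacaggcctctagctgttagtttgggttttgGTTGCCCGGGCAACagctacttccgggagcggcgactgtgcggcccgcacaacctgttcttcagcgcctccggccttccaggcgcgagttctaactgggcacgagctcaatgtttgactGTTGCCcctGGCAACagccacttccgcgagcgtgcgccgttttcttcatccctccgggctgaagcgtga

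Windows of 300 bases, from 250 before to 50 after the start, were found for 60 of the 77 members. The hexamer GTTGCC, searched on both strands, lay in the windows of 23 of these 60 (38.3%), against 14.1% of the 27025 genes with a window. It lay in 11 of the 32 members with a window that were at least 4 times higher in ependymal-like nuclei in every library (34.4%), and in 12 of the other 28 (42.9%). The share with the hexamer was thus not higher among the ependymal-high members. The full X-box, searched as GTTNCC, any 2 bases and GGNAAC, which can overlap the hexamer, lay in the window of Cfap298 alone among the members (1.67%), and in 0.529% of all genes. The forkhead motif GTAAACA, on both strands, lay in 3 of 60 member windows (5.0%) and in 4.05% of all genes. The Dnah12 window, before RefSeq's start, held none of the 3 motifs, and no window at the GENCODE start was searched. For 14 of the 60 members the nearest RefSeq start lay more than 100 bases from the GENCODE start. A match describes letters in a window and is not a measured binding site.

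The deposited counts are unique molecular identifiers (UMIs), each standing for an RNA molecule, and levels are given in CPM, the gene's UMIs relative to all UMIs of the same class and library. Values by library are listed in the order of replicates 1, 2 and 3. Libraries held 5387 to 9174 barcodes and 14120298 to 33794389 UMIs, and 41906 nuclei were kept. Replicate 1 of both groups stood apart, with another barcode list and medians of 1363 and 1365 UMIs per nucleus against 2290.5 to 2902 in the other 4 libraries. The doublet caller marked 0 and 1 nuclei there, so doublets may remain in these libraries. Pairs of libraries shared 0 to 86 barcodes, at most 1.30% of the smaller library. Egln2, the gene of PHD1, had 29.6, 18.8 and 16.4 CPM over all PHD1+/+ nuclei and 9.66, 9.04 and 10.1 over all PHD1-/- nuclei, without overlap. In ependymal-like nuclei Egln2 had 0 to 4 UMIs per library, too few to compare.

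Overlapping genes limit the levels of some members, since the strand setting of the counting is not stated. In GENCODE 3 members overlap a protein-coding gene on the same strand, which are Cfap43 (Itprip), Rsph10b (Pms2) and Cfap299 (Gm11111), and 20 overlap one on the opposite strand. Of the members described below, the latter are Dnah3, Dnah8, Dnah11, Dnah14, Dnah17, Cfap43, Cfap97, Cfap100, Rsph9, Rsph14, Spag17, Ift74 and Ift140. Whether the counting told reads of opposite-strand pairs apart is not known from the sources used here, so these levels are uncertain. Strand cannot separate reads shared by same-strand genes, so the levels of those 3 members are uncertain as well.

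Clustering with all 77 members left out of its genes gave 769 ependymal-like nuclei, 1.84% of all nuclei and 0.812% of all UMIs. There were 185, 76 and 144 in the PHD1+/+ libraries and 195, 18 and 151 in the PHD1-/- libraries. Their name rests on 14 ependymal markers, which are no members. Of these, 13 were higher than in all other nuclei in each of the 6 libraries, among them Foxj1, the master regulator of motile cilia (68.1 ± 40.4 against 3.34 ± 0.734 CPM, SD, n = 6), Tmem212 (600.1 ± 225 against 1.36 ± 0.984), Ccdc153 (153 ± 18.4 against 1.48 ± 1.31) and Rarres2 (466 ± 167 against 10.02 ± 11.5). Fam183b was higher in 5 of 6. The class comes from clusters of the same nuclei, so its levels beside other nuclei are a description with no test. Of the 14 markers, 10 are in the lists of other motile cilium genes and regulators given below. The naming was therefore not independent of motile cilium genes.

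Motile cilium genes were far higher in ependymal-like nuclei. Summed over the members, their levels there were 13312, 22024 and 26599 CPM in the PHD1+/+ libraries and 16796, 21869 and 28315 in the PHD1-/- libraries. All other nuclei had 1131 to 1267 CPM, so the classes did not overlap. Of the 71 members with at least 100 UMIs, 41 were at least 4 times higher in ependymal-like nuclei in each of the 6 libraries, beside 2.45% of the 17999 genes with at least 100 UMIs. The median ratio of ependymal-like to other nuclei was 18.8 over the 71 members and 0.907 over all 17999 genes. By family the count was 10 of 15 Dnah, 23 of 31 Cfap, 3 of 7 Rsph, 3 of 4 Spag and 2 of 14 Ift genes, with median ratios of 28.7, 41.4, 8.95, 112 and 2.69. In 13 members, over 50% of all UMIs came from ependymal-like nuclei, and 4 (Spag6, Dnah8, Cfap97 and Cfap410) had a mean level there no higher than elsewhere. The other 6 members had under 100 UMIs in all nuclei. Levels are compared between classes and libraries within a gene, not between genes, since counts were not scaled by length.

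**Figure D1:**
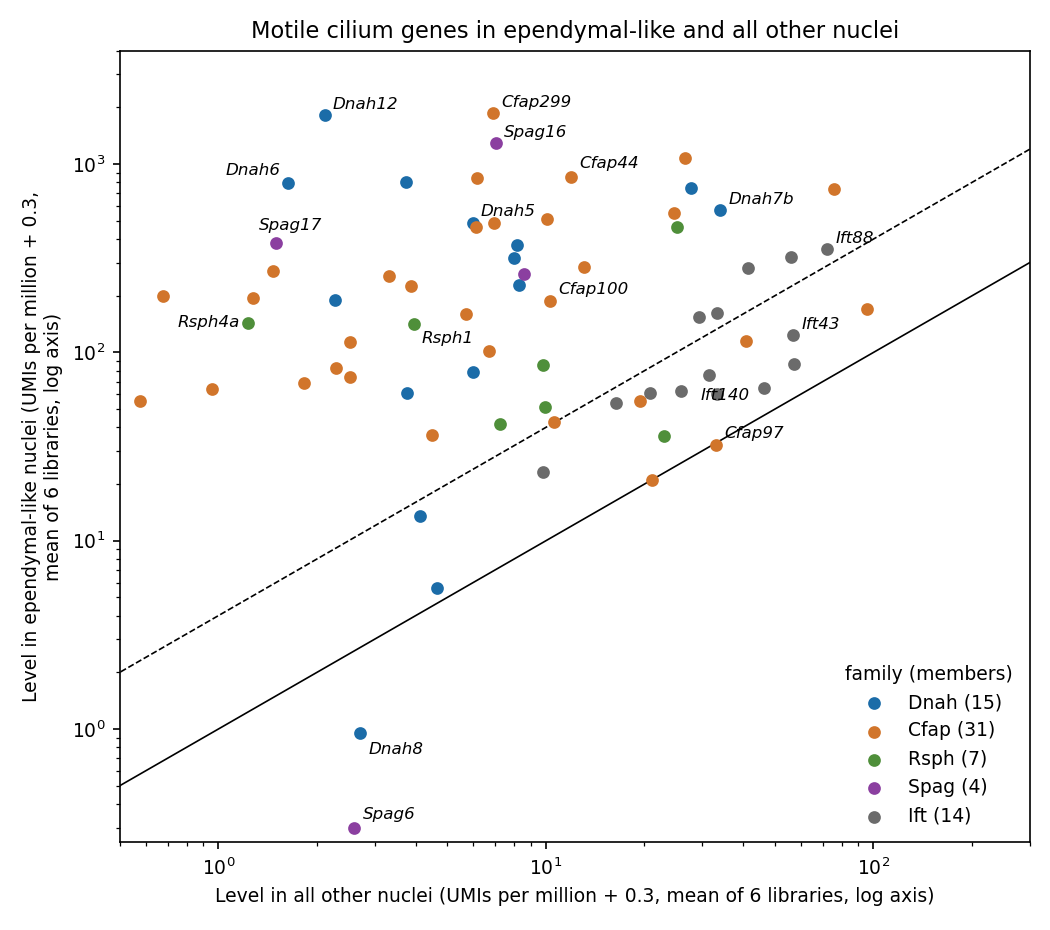
Each point is a member with at least 100 UMIs, placed by its mean level over 6 libraries in all other nuclei (horizontal) and in ependymal-like nuclei (vertical), in CPM plus 0.3 on log axes, with the solid line at equal levels and the dashed line at a ratio of 4. Most Dnah, Cfap and Spag genes lie above the dashed line, and most Ift genes lie between the lines. Dnah8 and Spag6 lie below the solid line, and Cfap97 and Cfap410 lie at or just below it.

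Among the dynein heavy chains, Dnah12, of a single-headed inner arm (chr14:26693274-26891703, plus strand), had the largest share of its molecules in ependymal-like nuclei. Its levels there were 1051, 2069 and 2169.6 CPM in PHD1+/+ and 1242, 2043 and 2327 in PHD1-/-, against 1.81 ± 1.08 (SD, n = 6) in all other nuclei, a ratio of 1003. Both replicate 1 libraries were the lowest, and the genotypes overlapped. These nuclei held 90.3% of its 2385 UMIs. In nuclei thinned to 1000 UMIs each, Dnah12 was found in 354 of 465 ependymal-like nuclei (76.1%) and in 4 of 1387 microglia-like nuclei (0.288%), a cell type without motile cilia. Libraries were pooled for these shares. Of the 465 nuclei, replicate 3 gave 130 (PHD1+/+) and 135 (PHD1-/-), and replicate 1 gave 55 and 64. Dnah6, also of the inner arms (chr6:73017606-73221651, minus strand), had 451 to 1089.6 CPM (median 809) over the 6 libraries against 1.34 ± 0.869 elsewhere, with 84.9% of its UMIs in ependymal-like nuclei.

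The outer arm heavy chains were high in the same nuclei. Dnah11 had 504 to 1201 CPM (median 808) over the 6 libraries, a ratio of 234 to all other nuclei, with 69.1% of its UMIs there. Dnah9 (745 ± 227 against 27.4 ± 6.94 CPM, SD, n = 6) and Dnah5 (488 ± 177 against 5.68 ± 0.865) had ratios of 27.2 and 86.0 and only 18.1% and 40.4% of their UMIs in ependymal-like nuclei. Dnah2 and Dnah10, the motors of the double-headed inner arm, had ratios of 47.2 and 96.4. Dnah7a, Dnah7b and Dnah7c had ratios of 41.6, 16.9 and 28.7. These copies share 44.4% to 56.2% of the 31-base words in the last 1000 bases of their longest transcripts, so reads may be split among them and their separate values are uncertain.

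The other 5 heavy chain genes with at least 100 UMIs did not reach 4 times the level of other nuclei in every library. Dnah8 and Dnah17, the outer arm chains known from sperm tails, had 1 of 352 and 7 of 643 UMIs in ependymal-like nuclei (0.284% and 1.09%), where these nuclei held 0.812% of all UMIs. The lone Dnah8 molecule sets no direction against the 2.40 ± 0.478 CPM (SD, n = 6) of all other nuclei. Dnah14 had 20 of 597 UMIs there (3.35%) and 0 to 37.0 CPM (median 11.04), a ratio of 3.46, and was at least 4 times higher in 2 of 6 libraries. Dnah1 and Dnah3 were at least 4 times higher in 5 of 6 libraries, with 33.6 to 124 CPM (median 77.7) and 4.80 to 124 CPM (median 48.6) in ependymal-like nuclei. Dnah3 overlaps Lyrm1 on the opposite strand.

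The Cfap family gave the largest number of ependymal-high genes. Cfap299 (chr5:98329304-98802047, plus strand) had 1214, 1868 and 2279 CPM in PHD1+/+ and 1545, 2043 and 2253 in PHD1-/- in ependymal-like nuclei. All other nuclei had 6.59 ± 1.67 (SD, n = 6), a ratio of 283, and 70.8% of its UMIs lay in ependymal-like nuclei. Both replicate 1 libraries were again the lowest, and the genotypes overlapped. Cfap43 and Cfap44, which tether the double-headed inner arm, had 845 ± 206 against 5.87 ± 1.53 and 856 ± 267 against 11.6 ± 0.638 CPM, ratios of 144 and 73.5. Cfap43 overlaps Itprip on the same strand and Gsto1 and Gsto2 on the opposite strand, so its level is uncertain. Cfap54 of the central pair had 1083 ± 346 against 26.3 ± 3.65, a ratio of 41.2. Cfap69, another central pair protein, was 9.81 times higher but had only 7.49% of its 12378 UMIs in ependymal-like nuclei, and was also read in neuron-like nuclei at 67.1 to 127 CPM (median 107).

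By share of UMIs, Cfap221, a central pair protein, led the family with 80.6% of 284 UMIs. Its levels were 62.4, 215 and 218 CPM in PHD1+/+ and 156, 268 and 269 in PHD1-/-, against 0.377 ± 0.146 (SD, n = 6) elsewhere. It was followed by Cfap299 and by Cfap52, a protein inside the doublet, with 69.9% of 511 UMIs. At the other end, Cfap97, Cfap410 and Cfap36 had 0.836%, 0.9% and 1.40% of their UMIs in ependymal-like nuclei, near the 0.812% of all UMIs that these nuclei held. Cfap97 had 32.0 ± 6.42 against 32.8 ± 5.06 CPM and Cfap410 20.7 ± 13.2 against 20.7 ± 9.13. Cfap410 is known in humans for variants linked to amyotrophic lateral sclerosis. Cfap36 was higher by a ratio of 1.78.

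In the plot of levels by class, genes such as Dnah12 and Cfap221 stand out in the ependymal-like column, while most Ift genes are more even across the columns.

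**Figure D2:**
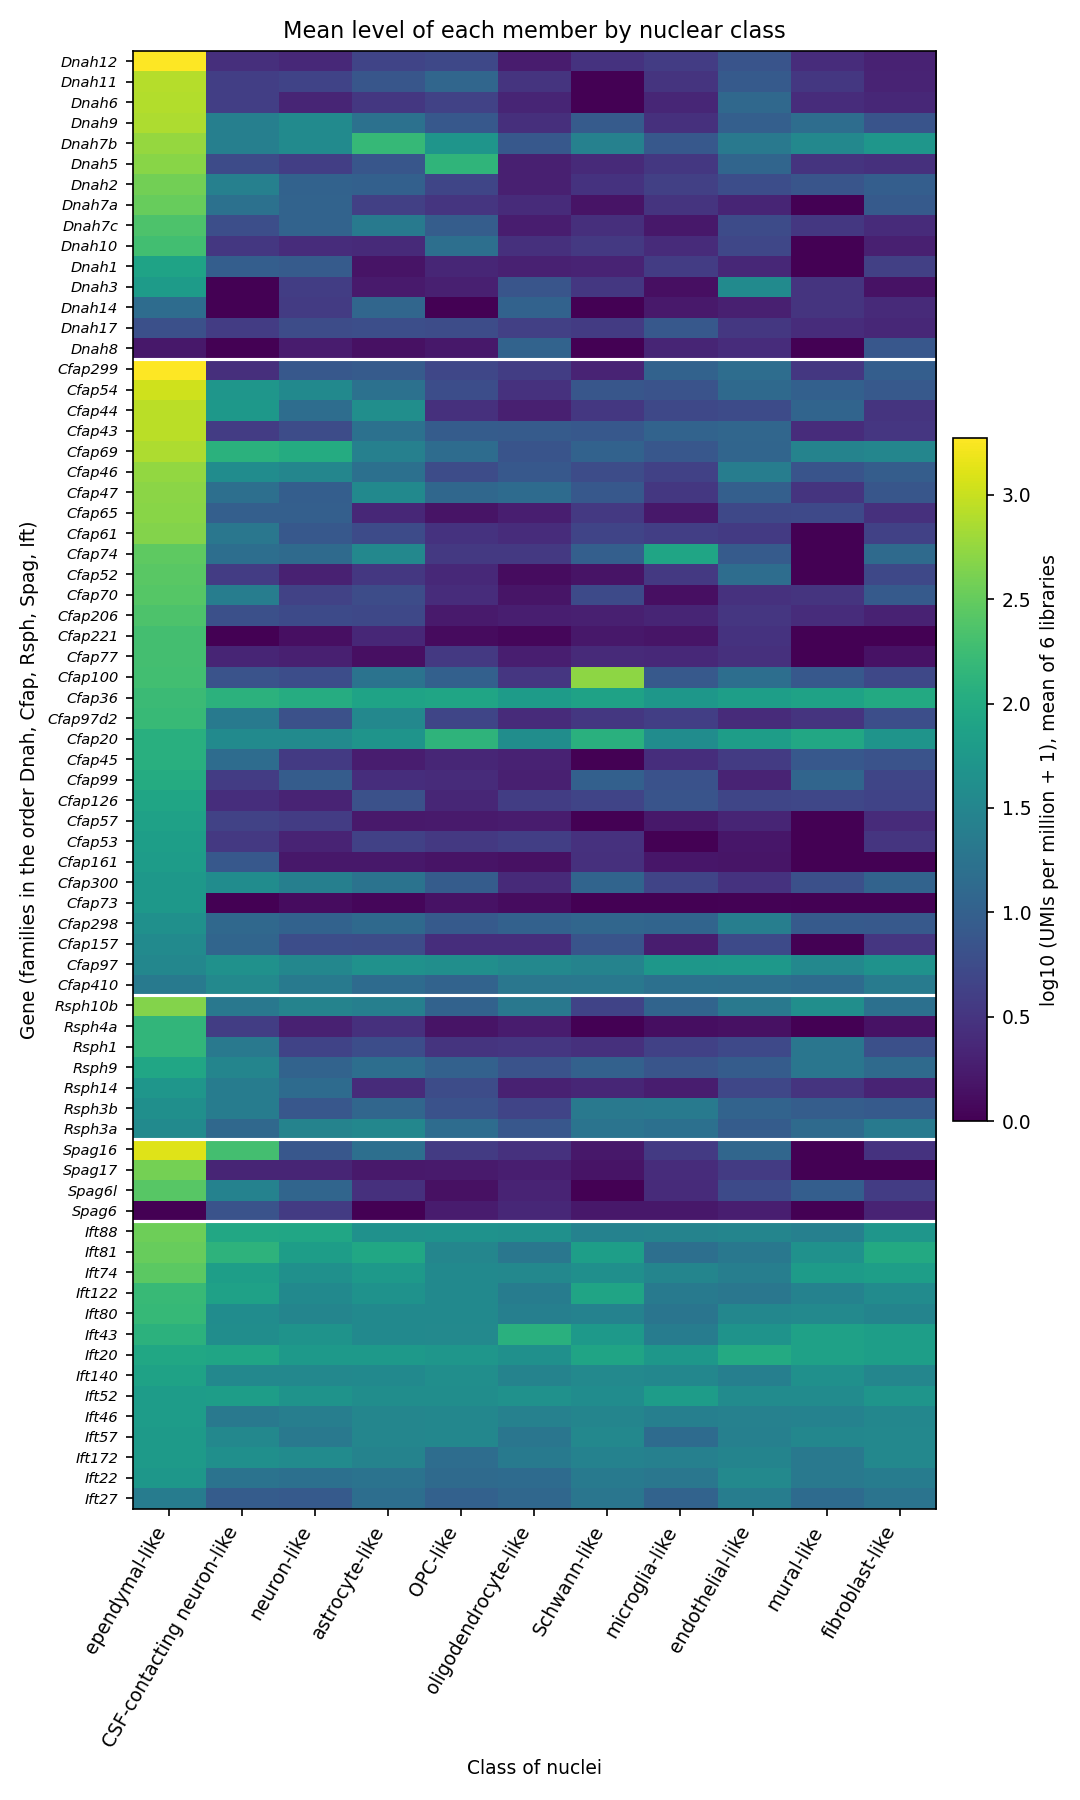
Each line is 1 of the 71 members with at least 100 UMIs, grouped by family, each column is 1 of the 11 named classes, and color gives the log10 of the mean level over 6 libraries (CPM + 1). The ependymal-like column is the brightest for most Dnah, Cfap and Spag genes, Cfap100 is brighter in the Schwann-like column, and the Ift genes at the bottom are more even.

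Of the spoke head genes, Rsph4a had 38.4, 167 and 206 CPM in PHD1+/+ and 77.9, 170.3 and 198 in PHD1-/- in ependymal-like nuclei, against 0.933 ± 0.194 (SD, n = 6) in all other nuclei, with 55.9% of its UMIs there. Rsph1 (142 ± 43.7 against 3.65 ± 1.13) and Rsph10b (465 ± 107 against 24.8 ± 4.41) had ratios of 38.8 and 18.7. Rsph10b overlaps Pms2 on the same strand, so its level is uncertain. Rsph9, also of the spoke head, and Rsph14 were 8.95 and 5.26 times higher without reaching 4 times in every library, and had 6.21% and 4.16% of their UMIs in ependymal-like nuclei. The stalk genes Rsph3a and Rsph3b share 92.0% of the 31-base words in their last 1000 bases, so their ratios of 1.58 and 5.91 are uncertain. Rsph6a, the sperm counterpart of Rsph4a, had 0 of its 53 UMIs in these nuclei.

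The central pair genes differed between paralogs. Spag16 (chr1:69826970-70725132, plus strand) had 749, 1069 and 1749.7 CPM in PHD1+/+ and 1086, 1387 and 1692 in PHD1-/- in ependymal-like nuclei, against 6.72 ± 1.35 elsewhere (SD, n = 6), with 62.3% of its UMIs there. Spag17 had 381 ± 151 against 1.20 ± 0.415 and 74.7% of its 660 UMIs. Spag6l had 260.3 ± 83.4 against 8.29 ± 0.984, a ratio of 31.4. Spag6, its paralog, had 0 of the 1192116 UMIs of ependymal-like nuclei, which allows up to 2.52 CPM (3 counts over all 6 libraries, counting error only), and 2.30 ± 0.416 CPM elsewhere. The limit lies above the level elsewhere, so a lower level of Spag6 in ependymal-like nuclei was not detectable at this depth.

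Intraflagellar transport genes were higher by smaller ratios. Ift74 and Ift81, the pair that binds tubulin as cargo, reached 4 times the level of other nuclei in every library (280.4 ± 87.2 against 41.0 ± 6.87 CPM and 321 ± 64.4 against 55.6 ± 4.51 CPM, SD, n = 6). Ift88, a core subunit, did so in 5 of 6 libraries, with 187, 430.5 and 393 CPM in PHD1+/+ and 324, 365 and 417 in PHD1-/-, against 72.0 ± 7.65. Ift122 and Ift80 had ratios of 4.90 and 5.32. The lowest shares were those of Ift52, Ift20 and Ift172, with 1.10%, 1.27% and 1.51% of their UMIs and ratios of 1.39, 1.52 and 1.82. Among Ift genes with at least 100 UMIs, Ift74 had the highest share, 5.04%. Summed over the family, the ratio was 3.61 ± 0.788 for Ift genes, 54.1 ± 14.1 for Dnah, 22.8 ± 5.77 for Cfap, 12.8 ± 4.45 for Rsph and 103 ± 25.7 for Spag genes (SD, n = 6 libraries).

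Other genes of the same machinery, from lists chosen for their known roles, are given by count. Among genes with at least 100 UMIs, 15 of 17 dynein arm chains and docking factors were at least 4 times higher in every library (median ratio 48.8), including Ccdc114 of the docking complex (475 ± 113 against 4.53 ± 1.63 CPM), Wdr78 (463 ± 179 against 29.2 ± 4.70) and Armc4 (396 ± 142 against 1.74 ± 0.485). The list of the nexin-dynein regulatory complex and the axonemal ruler reached 11 of 12 (median 29.2), with Drc3 (277 ± 33.9 against 14.5 ± 2.32) as an example. Other central pair, spoke and doublet genes reached 23 of 29 (median 36.1), among them Spef2 (1029 ± 309.5 against 10.9 ± 1.61). Assembly factors for dynein arms, which act in the cytoplasm, reached 4 of 14 (median 3.69), with Dnaaf3 at a ratio of 285 and Lrrc6 at 29.8. These lists and the regulators hold 10 of the 14 markers that named the ependymal-like nuclei, whose high level the naming fixed (Dynlrb2, Ccdc39, Foxj1, Hydin, Ak7, Pifo, Tmem212, Ccdc153, Fam183b and Zbbx). Without them the counts were 14 of 16 (median 40.7), 10 of 11 (median 32.2) and 17 of 22 (median 25.2) in the first 3 lists, and 5 of 13 (median 2.47) among the regulators below. The assembly factor list holds none of these markers.

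The transport and regulator lists had lower median ratios. Transport subunits with other symbols reached 1 of 9 (Ttc26, ratio 5.39; median 2.57). Transport motors and the BBSome reached 0 of 19 (median 2.46), where Dync2h1, the motor of return transport, had 432 ± 135 against 153 ± 36.9 CPM. Regulators reached 6 of 14 (median 3.15), among them Rfx3 (906 ± 273 against 159 ± 38.1), Rfx2 (255 ± 109 against 4.44 ± 1.51) and Ulk4 (302 ± 90.5 against 42.3 ± 5.91). These values are means ± SD over 6 libraries.

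Some members were also read in a named class other than ependymal-like, and are chosen here after their values were seen. Cfap100, a modifier of inner arm dynein, was higher in Schwann-like than in ependymal-like nuclei, with 423 to 593 CPM (median 521) over the 6 libraries and 558 UMIs, against 154 to 266 CPM (median 178), and the ranges did not overlap. The next named class, astrocyte-like, had 16.4 ± 3.05 CPM. Dnah12 had 3 UMIs in all Schwann-like nuclei and Hydin had 2. Cfap100 overlaps Zxdc on the opposite strand.

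Spag16 was read in nuclei like those of the neurons that contact cerebrospinal fluid at the central canal, at 66.8 to 372 CPM (median 182), from 105 UMIs in 20 to 26 nuclei per library. Neuron-like nuclei had 4.11 to 8.50 CPM (median 6.79), so the ranges did not overlap. Dnah12 and Cfap299 each had 1 UMI in the fluid-contacting nuclei. Dnah5 was read in nuclei like oligodendrocyte precursors (OPC-like) at 103 to 175 CPM (median 126), against 10.7 ± 16.1 in the next class, and had 441 UMIs there where Dnah12 had 12. Dnah7b was read in astrocyte-like nuclei at 87.8 to 201 CPM (median 169), overlapping the next class, fibroblast-like, at 19.3 to 91.0 CPM (median 55.4). Cfap74 was read in microglia-like nuclei at 63.2 to 109 CPM (median 81.8), above the next class, astrocyte-like, at 22.9 to 41.2 CPM (median 35.9), and it overlaps 5830444B04Rik on the opposite strand. Dnah3 was read in endothelial-like nuclei at 6.48 to 86.1 CPM (median 33.98) from 42 UMIs, a range that overlaps the 4.27 to 10.6 CPM (median 5.17) of oligodendrocyte-like nuclei. Dnah8 was read in oligodendrocyte-like nuclei at 7.15 to 12.2 CPM (median 10.8), within the 0 to 18.2 CPM (median 5.62) of fibroblast-like nuclei. Ift43, of the complex for return transport, had 91.7 to 139.5 CPM (median 119) in oligodendrocyte-like nuclei, which overlaps its 107 to 161 CPM (median 119) in ependymal-like nuclei and its 53.1 to 102 CPM (median 63.8) in mural-like nuclei.

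Within ependymal-like nuclei, replicate 1 was low for many members. Both replicate 1 libraries lay below all 4 others in 26 of the 41 ependymal-high members, and PHD1+/+ replicate 1 was the lowest of 6 in 32. After thinning to 1000 UMIs per nucleus, which left out 130 of 185 and 131 of 195 nuclei of replicate 1, a nucleus held a mean of 10.1 (PHD1+/+) and 15.6 (PHD1-/-) member UMIs in replicate 1, against 24.9 to 27.5 in the other 4 libraries. The median number of members found per nucleus was 7 and 10 against 16 to 17 (12 and 13 against 22.5 to 25 without thinning). The thinned nuclei were matched on UMI number only, and the part of depth in these values was not tested. The summed ependymal markers were lower too, at 4266 and 5515 CPM in replicate 1 against 7082 to 8507 in the others.

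Markers of other cell types also differed between libraries. In ependymal-like nuclei the 9 neuron markers summed to 6018, 4881 and 1143 CPM in PHD1+/+ and to 5515, 1362 and 777 in PHD1-/-, and the 9 oligodendrocyte markers to 3681, 1986 and 1143 and to 3479, 3430 and 1147. The 10 astrocyte markers ranged from 1147 to 1729 CPM in PHD1+/+ and from 975 to 2116 in PHD1-/-, and the 11 microglia markers from 229 to 350.3 and from 222 to 373. The 9 OPC markers ranged from 124 to 350.3 and from 148 to 2116, with the highest value in the 18 nuclei of PHD1-/- replicate 2. No marker of these lists was at 0, while 7 of 10 lymphocyte markers were. The part of these markers in the levels of the members was not tested.

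**Figure D3:**
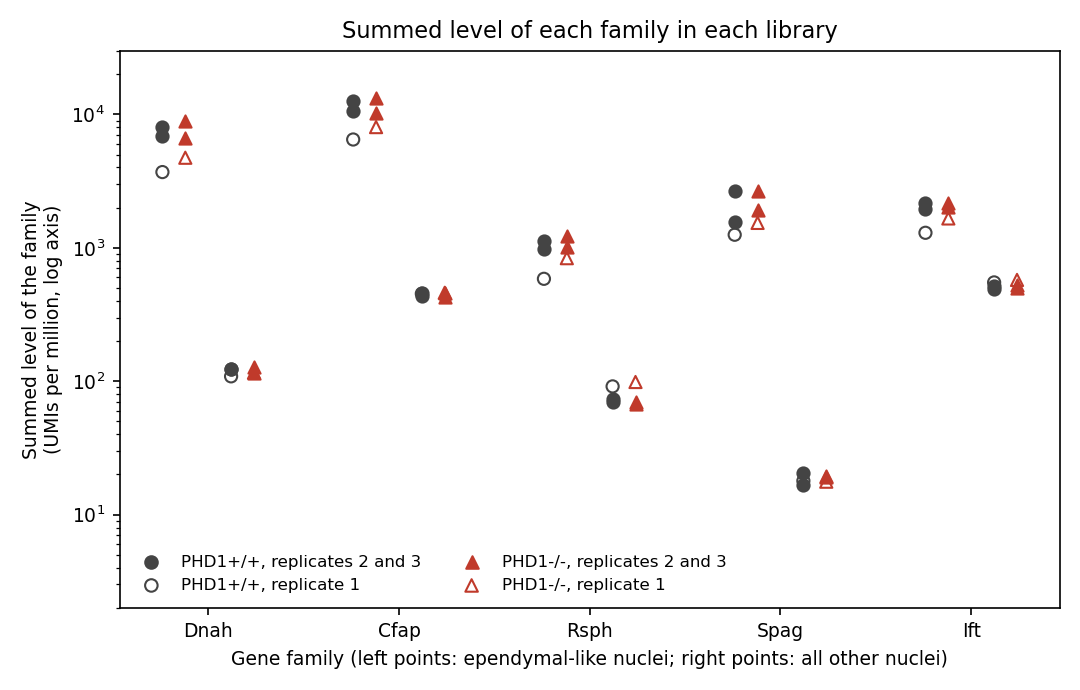
Points are libraries, placed by the summed level of a family in CPM on a log axis, with ependymal-like nuclei on the left and all other nuclei on the right of each family, circles for PHD1+/+, triangles for PHD1-/- and open symbols for replicate 1. In ependymal-like nuclei the open symbol is the lowest of its genotype in every family, and the ranges of circles and triangles overlap.

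No member passed the test for a genotype difference in ependymal-like nuclei. Of 60 members that passed the filter on low counts, 0 had an adjusted p under 0.05 in edgeR's quasi-likelihood test, as did 0% of the 5368 genes tested. At an unadjusted p under 0.05 there were 0 members and 38 genes (0.708%), and DESeq2 called 0, with 0 members and 9 genes at an unadjusted p under 0.05. The family sums overlapped between the genotypes. Dnah genes summed to 6193 ± 2237 CPM in PHD1+/+ libraries and 6787 ± 2132 in PHD1-/- libraries (SD, n = 3 per group), Cfap genes to 9926 ± 3139 and 10517 ± 2620, and Ift genes to 1811 ± 461 and 1954 ± 268. In simulated ependymal-like counts the test recovered 168 of 183 changes of 4-fold (91.8%), among 5388 genes, with 11 false calls. The simulation gave all genes the same dispersion, changed only genes above a minimum count and held no shift between replicates. The share recovered therefore need not hold for the real libraries. Smaller changes may not be detectable at this depth.

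Most members had small positive differences with larger errors. Of the 60, 47 were positive and 13 negative, with a median log2 difference of 0.11 (PHD1-/- over PHD1+/+) and a median SE of 0.38, beside a median of -0.03 over all 5368 genes, of which 46.8% were positive. Positive values were found in 11 of 12 Dnah, 20 of 27 Cfap, 5 of 5 Rsph, 3 of 3 Spag and 8 of 13 Ift genes. The balance turned without PHD1+/+ replicate 1, where 28 of 63 were positive (median -0.05) beside 50.1% of all genes, and without PHD1-/- replicate 3, where 24 of 60 were (median -0.05) beside 46.0%. Dnah12 had a log2 difference of 0.07, SE 0.32, Spag16 of 0.21, SE 0.32 and Dnah5 of -0.02, SE 0.38.

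Rsph14, of the radial spokes, had the smallest p, and it overlaps Gnaz on the opposite strand. Levels given with the genotype tests are relative to the UMIs of the genes past the filter only, and are scaled with edgeR's TMM factors. The smaller total makes them higher in ependymal-like nuclei than the plain CPM above. On this scale Rsph14 had 38.5, 48.0 and 48.3 CPM in PHD1+/+ and 105, 55.0 and 68.7 in PHD1-/-. The groups did not overlap, and the log2 difference was 0.84 (SE 0.43, edgeR adjusted p = 0.99985). Ift46, a transport subunit, had 57.7, 64.0 and 35.1 against 84.1, 137 and 64.9 (0.72, SE 0.46), and Cfap100 had 205, 184 and 184 against 247, 219.8 and 302 (0.45, SE 0.29). Ift122, of the complex for return transport, had 103, 144 and 211 against 179, 247 and 252 (0.53, SE 0.36), with overlap. Groups that did not overlap were found for 4 of 60 members (6.67%), beside 6.04% of all genes (3.13% higher and 2.91% lower), a share near the background. PHD1-/- was the higher group in all 4, which were Rsph14, Ift46, Cfap100 and Cfap206.

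**Figure D4:**
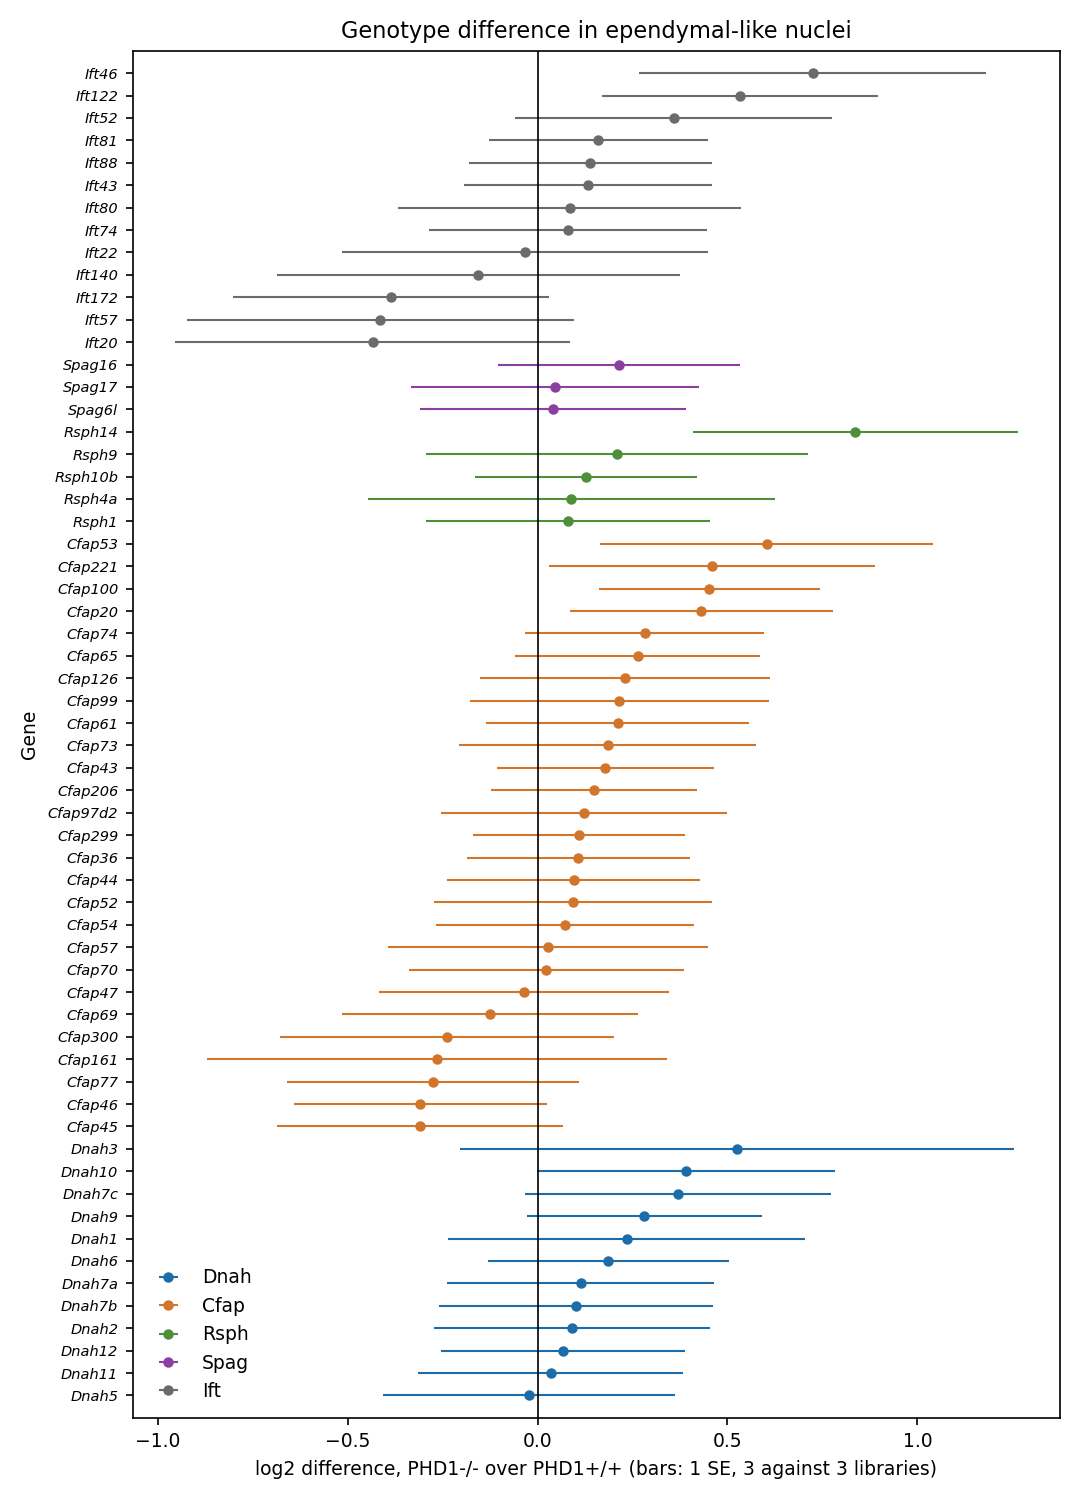
Points are the log2 differences of 60 members between PHD1-/- and PHD1+/+ in ependymal-like nuclei, with bars of 1 SE from edgeR, 3 libraries against 3, colored by family. The points lie between -0.43 (Ift20) and 0.84 (Rsph14), and 47 of 60 lie to the right of 0.

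Over all nuclei, 0 of 73 members tested passed the adjusted threshold in edgeR, as did 0% of 19303 genes. At an unadjusted p under 0.05 there were 0 members and 96 genes (0.497%), and DESeq2 called 0, with 0 members at an unadjusted p under 0.05. In such sums, fewer ependymal nuclei and less RNA per nucleus cannot be told apart. Dnah12 had 15.2, 10.4 and 26.3 CPM in PHD1+/+ and 23.7, 3.55 and 26.1 in PHD1-/-, lowest in the library with 18 ependymal-like nuclei. Of the 73, 54 were positive, with a median log2 difference of 0.06, beside 48.2% of all genes. In replicates 2 and 3 alone 29 of 73 were positive (median -0.03), beside 53.4% of all genes. Without the ependymal-like nuclei 40 of 71 members were positive (median 0.01), beside 47.7% of all genes. In the test of all nuclei, the smallest p were those of Rsph9 (-0.31, SE 0.18; 10.95, 11.5 and 11.1 against 8.77, 8.35 and 9.84), Ift140 (0.23, SE 0.17), Cfap53 (0.41, SE 0.31) and Ift22 (-0.37, SE 0.37). Of these, Ift22 turned to 0.057 without PHD1+/+ replicate 1. Groups that did not overlap were found for Cfap53 (PHD1-/- higher) and Rsph9 (PHD1-/- lower), 2.74% of members, beside 3.95% of all genes (1.99% higher and 1.96% lower). Cfap410 had 35.9, 13.9 and 16.4 against 27.9, 14.5 and 15.6 (-0.19, SE 0.43).

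In the other classes, 0 members passed the adjusted threshold in edgeR, as did 0% of all genes in each class. Tested were 35 members in oligodendrocyte-like, 16 in OPC-like, 22 in astrocyte-like, 12 in microglia-like and 70 in neuron-like nuclei, with median log2 differences of 0.03, 0.03, 0.13, 0.09 and 0.00. At an unadjusted p under 0.05 there was 1 member in astrocyte-like nuclei and 0 in each of the other 4 classes, beside 0.797%, 1.01%, 0.602%, 0.5% and 0.479% of all genes in the order above. DESeq2 gave the same counts of members. With the replicate number as a block, 0 members passed the adjusted threshold in any class, while 43 of 17750 genes did in neuron-like nuclei and 1 of 7312 in astrocyte-like nuclei.

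The block raised the counts at an unadjusted p under 0.05. Members at that level were then 2 of 35 in oligodendrocyte-like (Dnah3 and Rsph1), 1 of 16 in OPC-like (Ift140), 2 of 22 in astrocyte-like (Ift140 and Ift81), 0 of 12 in microglia-like and 4 of 70 in neuron-like nuclei (Cfap299, Rsph9, Ift22 and Dnah14). In the same order these were 5.71%, 6.25%, 9.09%, 0% and 5.71% of members, beside 7.79%, 5.02%, 4.87%, 4.42% and 9.96% of all genes. The lowest adjusted p of a member was that of Cfap299 in neuron-like nuclei (0.48, SE 0.15, edgeR adjusted p = 0.289 with the block). Ependymal-like nuclei had Cfap221 alone (0.56, SE 0.27, edgeR adjusted p = 0.806 with the block), 1 of 60 members beside 6.00% of all genes. All nuclei together had Ift22 alone (-0.32, SE 0.12, edgeR adjusted p = 0.817 with the block), 1 of 73 beside 5.95%.

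Ift140, a core subunit of the complex for return transport, was the member in astrocyte-like nuclei without the block. It overlaps Tmem204 on the opposite strand, and whether reads of the pair were told apart is not known, so its level is uncertain. Its TMM-scaled levels there were 20.03, 22.2 and 30.5 CPM in PHD1+/+ and 40.2, 64.2 and 49.4 in PHD1-/-. The groups did not overlap, and the log2 difference was 1.07 (SE 0.35, edgeR adjusted p = 0.999853). In OPC-like nuclei it had 33.5, 25.1 and 35.7 against 69.0, 59.8 and 33.5 (0.77, SE 0.36), with overlap. The difference was 0.45, SE 0.36 in microglia-like, 0.30, SE 0.22 in oligodendrocyte-like and 0.14, SE 0.16 in neuron-like nuclei. In ependymal-like nuclei it was -0.16, SE 0.53, with 103, 87.9 and 123 against 110.3, 0 and 118, where the 0 is from 18 nuclei with 41109 UMIs and allows up to 73.0 CPM before scaling (3 counts in that library). These classes come from the same 6 libraries, and the difference was not tested between astrocyte-like and other nuclei. In astrocyte-like nuclei all 9 tested mitochondrial transcripts had negative differences (median -0.58). Their median was also negative in oligodendrocyte-like (-0.34), OPC-like (-0.41), microglia-like (-0.22) and neuron-like nuclei (-0.36), but 0.23 in ependymal-like nuclei. The part of these transcripts in the Ift140 value was not tested.

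**Figure D5:**
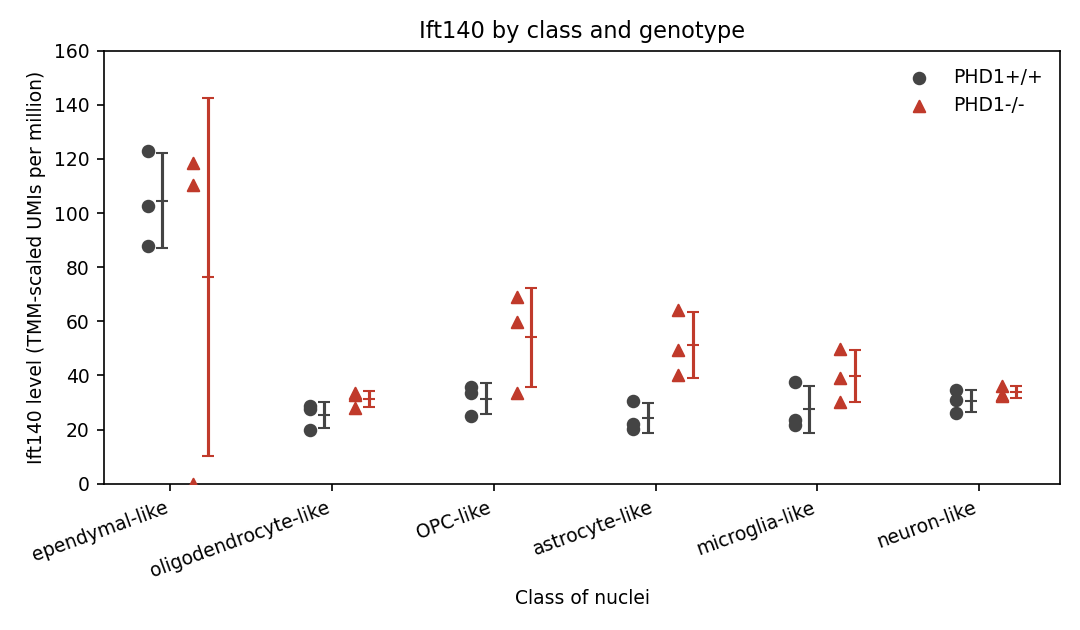
Points are libraries, placed by the TMM-scaled Ift140 level in CPM in 6 classes, with circles for PHD1+/+ and triangles for PHD1-/-. Levels are relative to the UMIs of the genes past the filter in each class. The bars beside the points give the mean and SD (n = 3). In the astrocyte-like class every triangle lies above every circle, and in the other 5 classes the genotypes overlap.

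The remaining members with the smallest p in each class did not pass either. In oligodendrocyte-like nuclei these were Dnah3 (0.68, SE 0.35), Ift74 (0.30, SE 0.21) and Ift122 (-0.30, SE 0.22). In OPC-like nuclei they were Ift81 (0.57, SE 0.47), Ift52 (-0.32, SE 0.35) and Ift46 (0.38, SE 0.42), and in astrocyte-like nuclei Cfap97d2 (0.65, SE 0.35), Ift81 (0.42, SE 0.32) and Ift43 (0.45, SE 0.38). In microglia-like nuclei they were Ift46 (-0.59, SE 0.33), Ift172 (0.55, SE 0.34) and Ift52 (0.41, SE 0.27). In neuron-like nuclei they were Spag17 (0.66, SE 0.33), Cfap299 (0.51, SE 0.26), Rsph9 (-0.35, SE 0.18) and Cfap161 (-0.75, SE 0.41).

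Few members had groups that did not overlap in these classes, and their shares lay on both sides of those of all genes. There was 1 of 35 in oligodendrocyte-like nuclei (2.86%; Ift74, higher), beside 5.59% of all genes (2.49% higher and 3.11% lower). OPC-like nuclei had 0 of 16 (0%), beside 5.5% of all genes (3.12% higher and 2.38% lower). Astrocyte-like nuclei had 2 of 22 (9.09%; Ift140 and Cfap97d2, higher), beside 5.21% of all genes (2.64% higher and 2.57% lower). Microglia-like nuclei had 2 of 12 (16.7%; Ift80 higher, Ift46 lower), beside 4.26% of all genes (2.37% higher and 1.89% lower). Neuron-like nuclei had 5 of 70 (7.14%; Spag17 and Dnah14 higher, Rsph9, Cfap161 and Cfap45 lower), beside 4.27% of all genes (2.12% higher and 2.15% lower). With 12 to 70 members per class these shares are imprecise.

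Whether the genotype difference itself differed between ependymal-like and all other nuclei was tested by an interaction term. Of 60 members 0 passed the adjusted threshold in edgeR, as did 0% of 5368 genes, and 0 members and 49 genes (0.913%) had an unadjusted p under 0.05. Rsph14 had the smallest p, with a difference of 0.90 on the log2 scale (SE 0.54, edgeR adjusted p = 0.999768), followed by Ift46 (0.66, SE 0.47), Cfap20 (0.44, SE 0.36) and Cfap77 (-0.64, SE 0.57).

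The other machinery lists gave 0 genes past the adjusted threshold in ependymal-like nuclei as well. Positive differences, found in 46.8% of all genes tested there, were found in 11 of 11 nexin complex and ruler genes (median 0.16), 13 of 15 arm chains and docking factors (median 0.21), 16 of 24 other central pair and spoke genes (median 0.08), 4 of 8 assembly factors (median 0.06), 4 of 7 regulators (median 0.01), 3 of 4 other transport subunits (median 0.32) and 8 of 14 motors and BBSome genes (median 0.02). In the same nuclei 10 of 11 mitochondrial transcripts were positive (median 0.23). As for the members, the balance of the first 3 lists turned or shrank without 1 library. Without PHD1+/+ replicate 1 they had 5 of 11 (median -0.03), 7 of 15 (median -0.01) and 9 of 25 (median -0.04) positive, and without PHD1-/- replicate 3 they had 7 of 11 (median 0.09), 7 of 15 (median -0.06) and 11 of 25 (median -0.07). The mitochondrial transcripts had 8 of 11 (median 0.14) and 6 of 11 (median 0.03).

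Ependymal-like nuclei made up 1.92% ± 0.897 of the nuclei of a PHD1+/+ library and 1.91% ± 1.46 of a PHD1-/- library (SD, n = 3). An exact permutation test of the means, on both sides, gave p = 1.0, where 0.10 is the smallest possible. The shares were 2.02% (exact Clopper-Pearson 95% interval 1.74 to 2.33), 0.980% (0.773 to 1.22) and 2.76% (2.34 to 3.25) in PHD1+/+, and 2.96% (2.57 to 3.40), 0.249% (0.148 to 0.394) and 2.52% (2.14 to 2.95) in PHD1-/-. The intervals cover counting error only. Replicate 2 was the lowest of each group, and its intervals overlapped none of the others. With at least 1000 UMIs per nucleus this no longer held in PHD1+/+, where replicate 1 fell to 0.961% (0.725 to 1.25) beside 0.915% (0.704 to 1.17) in replicate 2, and PHD1-/- replicate 1 had 1.53% (1.18 to 1.95).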

How the data were processed

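Nuclei were read with a droplet-based 3′ kit in 6 libraries. The deposited UMI counts were made by the authors with Cell Ranger, 5.0.1 per the file headers and 5.0.2 per the submitters' processing notes, which also list mm10 and Scanpy 1.8.1. Intron and strand settings are not given in the sources used here. Kept barcodes had 500 UMIs and 300 genes or more and at most 5% mitochondrial UMIs, and nuclei marked by Scrublet were removed. Clusters were made in Scanpy 1.11.5 (2000 variable genes chosen across libraries, 30 components, 15 neighbours, Leiden resolution 1.0), with the members left out and without integration, and named from marker lists. For each class the UMIs of a library were added up and compared, 3 libraries against 3, by edgeR 4.0.16 in R 4.3.3 (TMM, filterByExpr, quasi-likelihood test, Benjamini-Hochberg adjustment over all genes tested, threshold 0.05). DESeq2 1.42.0 was an alternative. The p-values measure the spread between these libraries. Gene positions and overlaps are from GENCODE on GRCm38.

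The members and the gene lists were chosen with earlier results of these data known. Named members were, per family, the 5 with most ependymal UMIs and the 3 with the highest and the 3 with the lowest ependymal shares, per test the 4 with the smallest p, members with near-identical copies, and up to 3 genes per other list. Other genes were named after their values were seen. The tests were checked on simulated counts. Libraries with the same replicate number deviated together over all nuclei (correlations of 0.83, 0.64 and 0.52) and in ependymal-like nuclei less so for number 2 (0.57, 0.0966 and 0.51). In OPC-like, astrocyte-like and microglia-like nuclei PHD1+/+ replicate 2 matched a PHD1-/- library of another number better than replicate 2 (0.32, 0.28 and 0.50). These pairings are read from the data, since the labels tie no number to a litter. Levels were centred within each group, and replicate 1 stood apart in both groups. Centring can then by itself raise the correlations for numbers 2 and 3, so these do not establish a pairing.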

Additional observations from a re-analysis of the deposited data

How the results depend on the processing

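The count of members at least 4 times higher in ependymal-like nuclei was 41. It was 39 with the wider cilium lists also left out of clustering, with no gene left out, or with doublets kept, 38 with at least 1000 UMIs per nucleus, 41 to 45 when a library was left out, and 46 in replicates 2 and 3 alone. No member passed the adjusted genotype threshold in edgeR or DESeq2 under any alternative run. Over all genes, where 0 passed in each set, the replicate block gave 1 in ependymal-like, 1 in astrocyte-like and 43 in neuron-like nuclei, and changed no other count of calls. It raised the genes at an unadjusted p under 0.05 in all 7 sets, from 38 to 322 in ependymal-like, 85 to 1768 in neuron-like and 96 to 1148 in all nuclei, with 0 to 4 members among them. In astrocyte-like nuclei DESeq2 gave 1, no filter on low counts 3 and replicates 2 and 3 alone 4, and in neuron-like nuclei replicates 2 and 3 alone gave 1. The difference in the share of ependymal-like nuclei (PHD1-/- minus PHD1+/+) was -0.0111 percentage points, also with the replicate block (exact permutation p = 1.0, where 0.25 is the smallest possible with the block). It ranged from -0.538 to 0.820 when a library was left out, turning positive without PHD1+/+ replicate 1 (0.0385), PHD1+/+ replicate 3 (0.410) or PHD1-/- replicate 2 (0.820). Ift22 over all nuclei ranged from -0.65 to 0.057 when a library was left out, positive without PHD1+/+ replicate 1 only. The cause was not tested. The interaction was refitted without each library, without scaling, with at least 1000 UMIs and in replicates 2 and 3 alone, alternatives chosen after seeing the data, and 0 members passed. Its median over the members was 0.12, but -0.21 without PHD1+/+ replicate 1 and -0.11 without PHD1-/- replicate 3. The Ift140 difference in astrocyte-like nuclei ranged from 0.90 to 1.26 over its alternatives, with edgeR or DESeq2 adjusted p from 0.939 to 1.00. With 18 ependymal-like nuclei in the smallest library, small changes and low members may go undetected. The parts of depth and of the spread between replicates in the lack of calls were not tested.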
